A study of Saccharomyces cerevisiae with 12 samples.

Results

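The transcriptomes of budding yeast in 2 growth states were set side by side, a W303 strain after a shift to galactose and a DF5 strain in glucose. The 6 samples are those of both control strains of the study, in which EUC1 (YMR111C), a gene of a DNA-binding protein that is modified by SUMO, is transcribed from its own promoter. They are 3 samples titled as the control with pEUC1-EUC1 and 3 samples titled as wild type (WT), out of 12 samples in all, and 6324 of the 6825 identifiers listed averaged 1 TPM or more across these 6 samples and were tested. The galactose control is a W303a RAD5 strain, of mating type a, in which the EUC1 locus was replaced by natNT2 and EUC1 was put back with its promoter on an integrated YIplac211 plasmid with the URA3 marker. Its cells grew in YP-raffinose to an OD of 0.5 and then received 2% galactose for 3 h. The glucose WT is a DF5a strain with an intact EUC1 locus, which carries MED11 and URA3 on the same kind of plasmid and grew in YP with glucose to mid-log phase. Each group stems from 1 strain, and nothing in the sources used here says whether the 3 samples of a group are separate cultures, so that p-values measure the spread between these samples. Strain, medium and experiment changed together, and their parts in any difference cannot be told apart. The further 6 samples of the series, an EUC1 deletion (euc1∆) in DF5 on glucose and EUC1 under the GAL promoter (pGAL-EUC1) in W303 on galactose, changed strain and medium in the same way.

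Glucose is the preferred sugar of budding yeast, and while it lasts the cells ferment it and keep genes for other sugars and for respiration off, a state known as glucose repression. The kinase Snf1 and the repressor Mig1 are its best-known regulators. Raffinose does not repress these genes strongly, so that galactose added to such cells can switch on the GAL genes quickly: galactose binds Gal3, which draws the inhibitor Gal80 away from the activator Gal4. Fast growth on glucose also goes with a high output of ribosomal protein genes, which takes up a large part of all mRNA.

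PolyA RNA was sequenced as single reads of 75 bases, and the values are TPM per gene, a share of all transcripts that is normalised by gene length and keeps no record of read number. The depth of each sample is therefore unknown. The sums of the TPM values lay between 989259 and 990614 in the galactose control and between 973736 and 993435 in the glucose WT. Because such shares fall for every gene when a few abundant groups take more of the total, the values were divided by size factors (median of ratios over all 12 samples), which were 1.11 to 1.13 in the galactose control and 0.790 to 0.914 in the glucose WT. TPM below means these rescaled values unless called deposited. Without the rescaling, log2 fold changes shift upward, and their median is 0.36 instead of -0.000251. Across the genes tested, log2 values correlated at 0.985 to 0.987 within the galactose control, 0.979 to 0.983 within the glucose WT and 0.883 to 0.892 between both groups. The labelled mating type a was checked with its genes: all 7 were listed in every sample of both groups, among them STE2, the receptor of alpha pheromone, at 179, 176 and 186 TPM in the galactose control, against 241, 256 and 271 TPM in the glucose WT. Of these 7 genes, 1 was higher and 3 were lower in the galactose control at a limma adjusted p under 0.1. MF(ALPHA)1, the alpha pheromone gene, had 4.75, 1.81 and 2.15 TPM in the galactose control, against 0.62, 0 and 0.306 TPM in the glucose WT. The 4 genes of alpha cells summed to 41.4 to 45.0 deposited TPM in the galactose control, against 22.3 to 26.3 in the glucose WT. Of these 4 genes, 3 were higher in the galactose control at the same adjusted p and none was lower. EUC1 itself had 44.7, 27.5 and 28.4 TPM in the galactose control, against 12.1, 17.9 and 14.2 TPM in the glucose WT, a log2 fold change of 1.11, with an SE of 0.21 and an adjusted p of 0.00253, and of 0.89 without the first galactose sample or 0.99 without the first glucose sample. MED11, a Mediator subunit gene with an extra plasmid copy in the glucose WT, had 24.8, 30 and 31.4 TPM in the galactose control, against 82.5, 69.5 and 71.8 TPM in the glucose WT.

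Both growth states differed in most genes. Differences were tested with limma on log2(TPM + 1), a scale that understates the changes of low genes, with Benjamini-Hochberg adjustment over all genes tested. Of the 6324 genes, 4352 (68.8%) had an adjusted p under 0.1, with 2204 (34.9%) higher and 2148 (34.0%) lower in the galactose control. At least 2-fold changes at this adjusted p, called higher or lower below, were found for 756 genes (12%) in the upward and 313 (4.95%) in the downward direction. On the deposited values the split moved to 1219 higher and 128 lower genes at 2-fold, and to 3654 higher and 840 lower genes at the adjusted p alone. A number in brackets after the TPM values of a gene is its log2 fold change, galactose control minus glucose WT. For the genes named below with an adjusted p under 0.1 the samples of both groups did not overlap, CTT1 excepted. All 3 galactose samples lay above all 3 glucose samples for 2214 genes (35%) and below them for 2166 (34.3%). The 10 largest rises were those of GAL7, GAL2, GAL1, GAL10, YER053C-A, YIL014C-A, MNC1, PRM8, GAL3 and HXT7, and the 10 largest falls those of AIF1, YBR012C, HXT3, YBR013C, HXT1, snR57, PAU18, YGR122C-A, TIR1 and HES1. Of these, YIL014C-A and PRM8 were listed at 0 in the glucose WT and AIF1, YBR013C and YGR122C-A in the galactose control, where the fitted fold depends on the 1 TPM added. All windows of 75 bases in PAU18 (100%) occur elsewhere in the genome, so that its value cannot be assigned to this gene. The lists of genes below hold 213 of the 756 higher and 119 of the 313 lower genes.

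**Figure D1:**
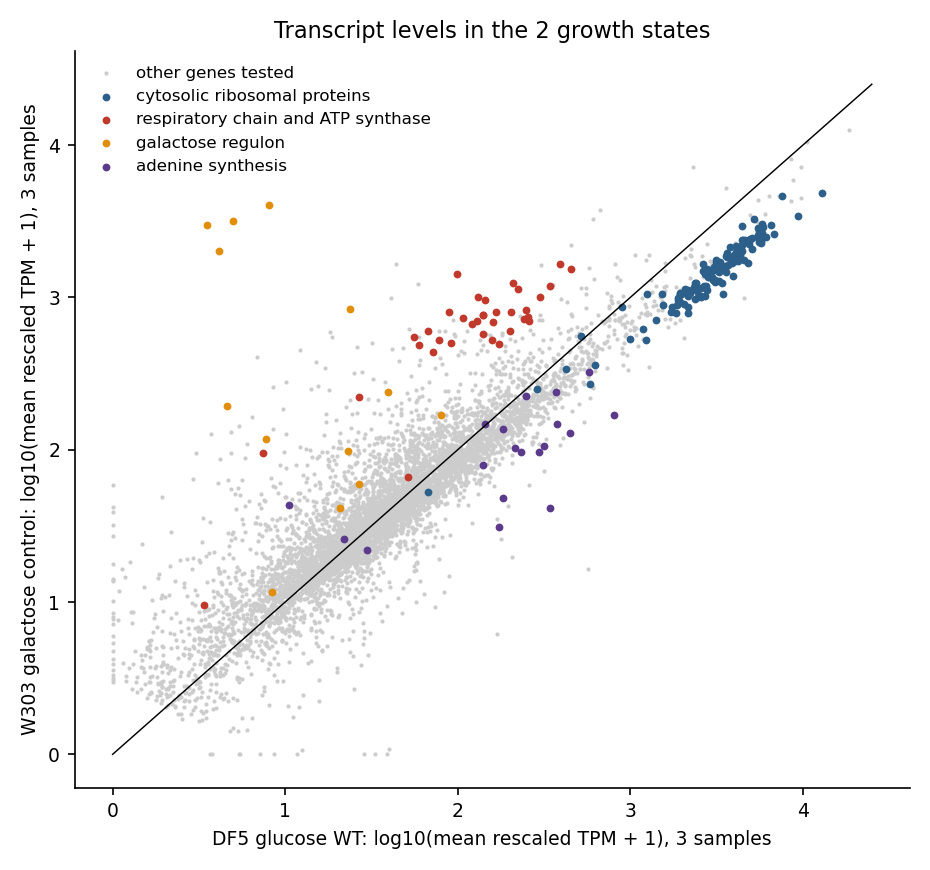
Mean rescaled TPM of each of the 6324 genes tested, as log10(mean + 1), in the galactose control (vertical axis, 3 samples) against the glucose WT (horizontal axis, 3 samples), with the line of equal levels and 4 gene lists in colour. The respiratory chain lies above the line, most cytosolic ribosomal protein genes below it, and 4 galactose genes stand far above all genes of similar level in glucose.

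The genes of galactose use included the 4 largest rises. They are known targets of Gal4, which binds as a dimer to the letters CGG and CCG set 11 bases apart, CGGNNNNNNNNNNNCCG. The sequences that follow were read from the R64 genome (RefSeq), in the 500 bases before the start codon, on the strand of the gene, with each match in capitals. They are shown because the genes that carry them changed by more than most. The stretch between GAL10 and GAL1, which are transcribed away from each other, holds 3 matches in 70 bases on chrII:278560-278629, shown on the plus strand. The last match ends 399 bases before the start of GAL1 and the first lies 215 bases from the start of GAL10. The others have 12 bases on either side, at chrII:275691-275731 (GAL7, minus strand), chrXII:289784-289824 and chrXII:289867-289907 (GAL2, plus strand), chrIV:463134-463174 (GAL3, plus strand), chrXIII:171410-171450 (GAL80, plus strand), chrXV:550733-550773 (GCY1, plus strand) and chrIV:1016143-1016183 (MTH1, minus strand).
GAL10 to GAL1: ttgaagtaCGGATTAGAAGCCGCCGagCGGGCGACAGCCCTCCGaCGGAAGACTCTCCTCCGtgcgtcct
GAL7: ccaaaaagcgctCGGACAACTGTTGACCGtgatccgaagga
GAL2, match 1: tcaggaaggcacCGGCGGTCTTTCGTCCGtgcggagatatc
GAL2, match 3: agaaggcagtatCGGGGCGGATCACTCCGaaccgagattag
GAL3: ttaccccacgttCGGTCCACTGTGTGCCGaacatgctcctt
GAL80: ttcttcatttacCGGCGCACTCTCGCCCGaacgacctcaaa
GCY1: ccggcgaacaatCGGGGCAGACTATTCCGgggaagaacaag
MTH1: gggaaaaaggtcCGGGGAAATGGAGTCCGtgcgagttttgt

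All 13 genes of the galactose list were higher in the galactose control at an adjusted p under 0.1, and 11 of them at least 2-fold. Galactokinase, GAL1 (YBR020W, chromosome II from 279021 to 280607), had 4054, 3922 and 4193 TPM in the galactose control, against 6.15, 8.25 and 6.87 TPM in the glucose WT, a log2 fold change of 8.98, with an SE of 0.1 and an adjusted p of 6.12e-09. The galactose permease GAL2 had 3080.0, 3053 and 3328 TPM in the galactose control, against 3.13, 4.71 and 4.09 TPM in the glucose WT, and its log2 fold change was 9.32, with an SE of 0.12 and an adjusted p of 6.17e-09. The uridyltransferase GAL7 had 3027, 2959 and 3026 TPM in the galactose control, against 2.4, 2.85 and 2.29 TPM in the glucose WT, and at 9.74, with an SE of 0.07 and an adjusted p of 8.28e-10 this was the largest log2 fold change among the genes tested. The epimerase GAL10 had 2048, 1947 and 2064 TPM in the galactose control, against 2.61, 3.75 and 3.01 TPM in the glucose WT (8.95 on the log2 scale). In glucose all 4 genes were thus listed at low but nonzero levels, of 2.29 to 8.25 TPM, and in the galactose control at 1947 to 4193 TPM. PGM2, the phosphoglucomutase that ends the pathway, had 90, 93.5 and 106 TPM in the galactose control, against 23.7, 22.7 and 20.2 TPM in the glucose WT (2.07). The regulators changed by unlike amounts. GAL3, the sensor of galactose, had 192, 193 and 191 TPM in the galactose control, against 3.39, 3.81 and 3.66 TPM in the glucose WT (5.38). The inhibitor GAL80 had 232, 236 and 242 TPM in the galactose control, against 33.1, 38.9 and 43.3 TPM in the glucose WT (2.6). GAL4, the activator, had 11.8, 9.64 and 10.6 TPM in the galactose control, against 7.52, 7.86 and 6.8 TPM in the glucose WT, a log2 fold change of 0.48, with an SE of 0.11 and an adjusted p of 0.00796. GCY1, an aldo-keto reductase gene, had 835, 820.1 and 881 TPM in the galactose control, against 21.9, 22.3 and 24.2 TPM in the glucose WT (5.15). MTH1, which helps to repress the hexose transporter genes, had 121, 115 and 113 TPM in the galactose control, against 5.38, 7.14 and 7.62 TPM in the glucose WT (3.94). The smallest changes of the 13 were those of GAL4, PCL10 (0.99), a cyclin gene, LAP3 (1.1), a protease gene, and FUR4 (1.15), the uracil permease gene. Together the list took 1.54 to 1.62% of all deposited TPM in the galactose control, against 0.0186 to 0.0231% in the glucose WT.

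**Figure D2:**
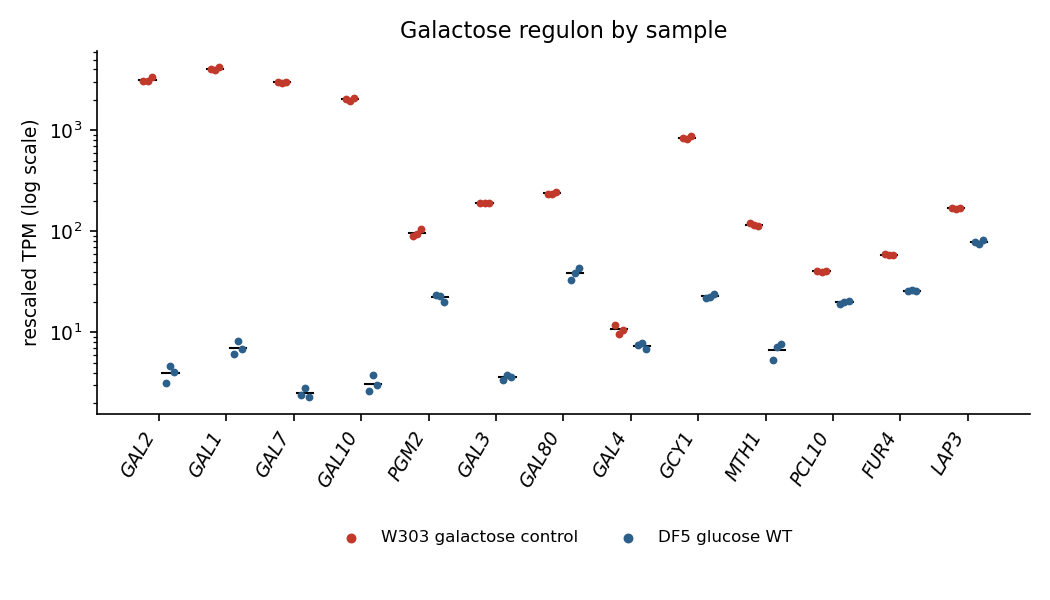
Rescaled TPM (log axis) of the 13 genes of the galactose list, with 1 point per sample and a bar at the mean of 3 samples, the galactose control on the left and the glucose WT on the right of each gene. The groups do not overlap in any of the 13 genes, and the gap runs from 0.48 (GAL4) to 9.74 (GAL7) on the log2 scale.

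A search of the promoters of 5731 tested genes found the Gal4 letters (1 pattern, the same on both strands) before 171 (2.98%), and before 11 of the 13 genes of the galactose list (84.6%), PGM2 and FUR4 being the exceptions. Matches of GAL2 overlap each other, and windows of 500 bases can reach into a neighbouring gene. The letters stood before 5.64% of 691 higher and 4.15% of 241 lower genes, both above the share of all. Of the 171 genes, 39 were higher, members of the galactose list among them, and 10 lower at least 2-fold. The median log2 fold change of the 171 genes was 0.19. The largest rises among those outside the list were those of SDD1 (3.4), QCR9 (3.18), a subunit gene of the cytochrome bc1 complex, and HTC1 (2.84). A match of the letters is a description of the sequence and does not show that Gal4 binds there.

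The family of hexose transporters split in both directions. HXT1 and HXT3, which carry glucose at low affinity and are known to be made when glucose is plentiful, were both lower. HXT3 had 14.4, 16.5 and 15.4 TPM in the galactose control, against 584, 552 and 578 TPM in the glucose WT, a log2 fold change of -5.12, with an SE of 0.07 and an adjusted p of 6.33e-09. HXT1 had 6.35, 5.19 and 4.04 TPM in the galactose control, against 180.1, 158 and 168 TPM in the glucose WT, a log2 fold change of -4.79, with an SE of 0.14 and an adjusted p of 2.49e-07. HXT2, of higher affinity and known to be made at low glucose, was lower as well, with 107, 112 and 99.7 TPM in the galactose control, against 434, 367 and 372 TPM in the glucose WT (-1.86). The transporters HXT7, HXT6, HXT5 and HXT4, of high or intermediate affinity, were higher. HXT7 had 1612, 1639 and 1729 TPM in the galactose control, against 32.3, 50.6 and 45.6 TPM in the glucose WT (5.27, with an SE of 0.15 and an adjusted p of 2.57e-07) and was the most abundant hexose transporter other than GAL2 in galactose. HXT6 had 228, 219 and 298 TPM in the galactose control, against 8.07, 19.8 and 11.4 TPM in the glucose WT (4.22). As 95% of the windows of 75 bases in HXT6 and HXT7 occur elsewhere in the genome, the division of reads between both genes is uncertain. HXT5 had 27.6, 28.1 and 26.7 TPM in the galactose control, against 3.29, 3.89 and 3.75 TPM in the glucose WT (2.62). HXT4 had 79.3, 82.3 and 80.9 TPM in the galactose control, against 23, 24.8 and 26.7 TPM in the glucose WT (1.67). Of the glucose sensors, SNF3, which responds to low glucose, had 12.5, 12.9 and 13.2 TPM in the galactose control, against 5.69, 4.95 and 5.68 TPM in the glucose WT (1.11), while RGT2, which responds to high glucose, had 20.1, 19.4 and 20.3 TPM in the galactose control, against 16.6, 19.7 and 16.8 TPM in the glucose WT, with overlapping groups and an adjusted p of 0.125, or of 0.0345 without the second glucose sample. Of the 18 genes in the list 15 were tested, and 7 were higher and 3 lower at least 2-fold. The higher genes include HXT10 (1.21), with means of 2.22 TPM in the galactose control and 0.382 TPM in the glucose WT. HXT10 reached the mean of 1 TPM only through the galactose control, which limits its part in the count.

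**Figure D3:**
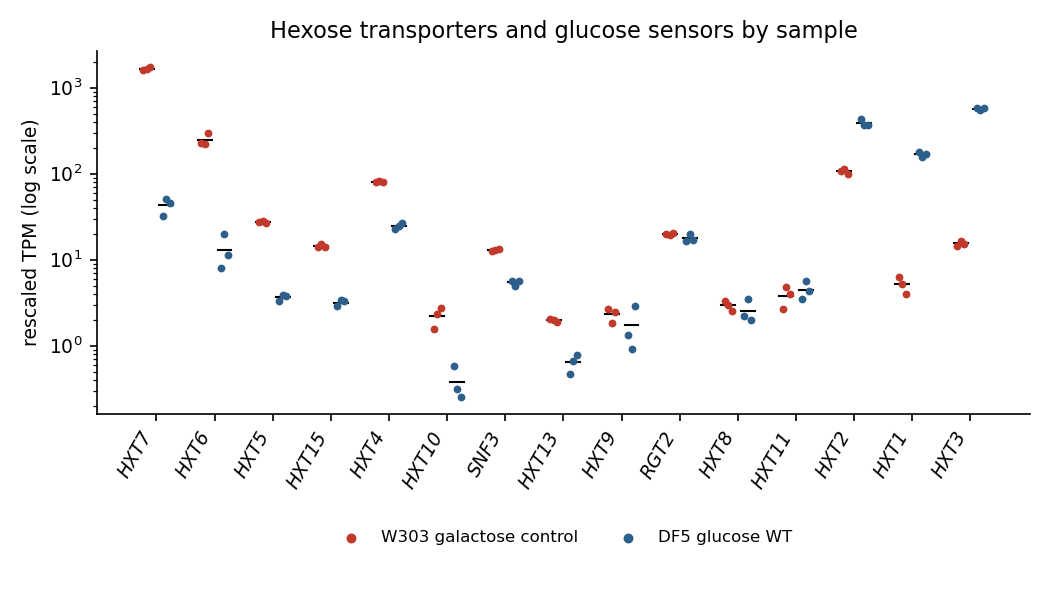
Rescaled TPM (log axis) of the 15 tested hexose transporters and glucose sensors, ordered by log2 fold change, with 1 point per sample and a bar at the mean of 3 samples, the galactose control on the left and the glucose WT on the right of each gene. HXT7 and HXT6 lie at the upper end of the order and HXT1 and HXT3 at the lower end, with no overlap between groups.

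Regulators of glucose repression moved in both directions. MIG1 had 65.5, 69.3 and 67.7 TPM in the galactose control, against 69, 75.4 and 71.7 TPM in the glucose WT, with overlapping groups and an adjusted p of 0.217. Its relatives MIG2 and MIG3, which also repress in glucose, were lower, MIG2 with 14.7, 15.8 and 18.3 TPM in the galactose control, against 51.5, 56.4 and 55.8 TPM in the glucose WT (-1.69, with an SE of 0.09 and an adjusted p of 4.66e-06) and MIG3 with 2.57, 2.05 and 2.87 TPM in the galactose control, against 20.5, 19 and 17.3 TPM in the glucose WT (-2.52). STD1, the partner of MTH1, had 12.3, 13.5 and 13.2 TPM in the galactose control, against 50.3, 52.2 and 50.6 TPM in the glucose WT (-1.9), a fall, whereas MTH1 rose. The kinase gene SNF1 had 53.8, 50.4 and 55.7 TPM in the galactose control, against 45.6, 48.8 and 49.8 TPM in the glucose WT (0.15, with an SE of 0.07 and an adjusted p of 0.0934). This adjusted p was 0.137 to 0.246 without 1 of the samples 1 and 3 of the galactose control or 1 and 2 of the glucose WT. That of MIG1 was 0.0964 without the first glucose sample. HAP4, the regulated subunit of the CCAAT-binding factor of respiratory genes, had 154, 147 and 153 TPM in the galactose control, against 12.4, 17.2 and 19.2 TPM in the glucose WT (3.16, with an SE of 0.14 and an adjusted p of 2.03e-06). ADR1 had 40, 39.4 and 40.7 TPM in the galactose control, against 3.1, 3.56 and 5.84 TPM in the glucose WT (3.03). CAT8 had 9.28, 9.73 and 10.2 TPM in the galactose control, against 2.4, 2.98 and 3.15 TPM in the glucose WT (1.49). Of 23 genes in the list, 7 were higher, including NRG1 (2.09), a repressor, and REG2 (2.48), a phosphatase subunit, and 3 were lower. SUC2, the invertase that splits sucrose and raffinose and a classic target of Mig1, had 256, 262 and 309 TPM in the galactose control, against 37, 39.5 and 34.7 TPM in the glucose WT, a log2 fold change of 2.86, with an SE of 0.09 and an adjusted p of 3.26e-07. Of 11 tested genes for the use of maltose and related sugars, 6 were higher and none was lower at least 2-fold, and MAL12 (2.92) and MAL33 (2.84) rose the most. MAL12 and MAL32 share 74.5 to 74.9% of their windows of 75 bases with other places in the genome.

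In glycolysis, the isozymes of a step often moved apart. The list of 27 genes had a median of -0.44, with 19 genes lower and 7 higher at an adjusted p under 0.1, but on the deposited values the median was -0.06 and 15 genes were below 0. Hexokinase 1, HXK1, had 306, 313 and 347 TPM in the galactose control, against 22.7, 33.7 and 23.7 TPM in the glucose WT (3.56, with an SE of 0.14 and an adjusted p of 1.12e-06). Glucokinase, GLK1, had 383, 385 and 427 TPM in the galactose control, against 71.3, 90.4 and 71.6 TPM in the glucose WT (2.35). HXK2, the main hexokinase in glucose, had 699, 708 and 712 TPM in the galactose control, against 975, 827 and 797 TPM in the glucose WT, a log2 fold change of -0.29, with an SE of 0.09 and an adjusted p of 0.0205. On the deposited values its log2 fold change was 0.087, with an adjusted p of 0.164, so that the direction turned and the call was lost. TDH1, an isozyme of glyceraldehyde-3-phosphate dehydrogenase, had 934, 950.1 and 1088 TPM in the galactose control, against 43.7, 41.7 and 34.4 TPM in the glucose WT (4.6, with an SE of 0.1 and an adjusted p of 1e-07). TDH3, the main isozyme and the most abundant mRNA in both groups, had 12458, 12134 and 13419 TPM in the galactose control, against 19969, 16903 and 18499.5 TPM in the glucose WT (-0.54). Enolase 1, ENO1, had 1609, 1570.5 and 1732 TPM in the galactose control, against 312, 293 and 301 TPM in the glucose WT (2.43, with an SE of 0.06 and an adjusted p of 1.89e-07). Enolase 2, ENO2, had 4448, 4342 and 4739 TPM in the galactose control, against 9851, 8831 and 10442 TPM in the glucose WT (-1.1, with an SE of 0.09 and an adjusted p of 4.32e-05). The enolase genes thus moved in opposite directions, and 10.7% of their windows of 75 bases occur elsewhere in the genome. Of the steps to ethanol, PDC1, pyruvate decarboxylase, had 2569.8, 2475 and 2721 TPM in the galactose control, against 6392, 6325 and 7803 TPM in the glucose WT (-1.4, with an SE of 0.1 and an adjusted p of 2.23e-05). ADH1, alcohol dehydrogenase 1, had 4225, 4179.8 and 4530.0 TPM in the galactose control, against 8755, 7878 and 8956 TPM in the glucose WT (-0.98). Pyruvate kinase, CDC19, had 2307, 2226 and 2326 TPM in the galactose control, against 3703, 4029 and 4431 TPM in the glucose WT (-0.82). The 6 genes listed under upper glycolysis include PGM1, a phosphoglucomutase gene. All 6 were lower at an adjusted p under 0.1, by 0.32 to 0.78 on the log2 scale. Their median of -0.45 shrank to -0.08 on the deposited values. There FBA1, aldolase, lost its call, at -0.06 with an adjusted p of 0.405.

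Genes of other carbon sources rose in part. JEN1, the permease of lactate and pyruvate, had 107, 107 and 113 TPM in the galactose control, against 3.85, 6.2 and 4.89 TPM in the glucose WT (4.22, with an SE of 0.14 and an adjusted p of 3.84e-07). ALD4, the mitochondrial aldehyde dehydrogenase, had 448, 443 and 474 TPM in the galactose control, against 36.9, 47.8 and 37.9 TPM in the glucose WT (3.45). ADH2, which turns ethanol back to acetaldehyde, had 129, 126 and 135 TPM in the galactose control, against 26.7, 22.8 and 26.6 TPM in the glucose WT (2.32). ACS1, an acetyl-CoA synthetase, had 21.3, 21.8 and 22.4 TPM in the galactose control, against 7.92, 7.04 and 7.53 TPM in the glucose WT (1.43). CIT2, the peroxisomal citrate synthase, and IDP2, the cytosolic isocitrate dehydrogenase, had log2 fold changes of 2.1 and 2.29. The fitted log2 fold changes of FBP1, PCK1, ICL1 and MLS1, the defining enzymes of gluconeogenesis and the glyoxylate cycle, were below 1 in size. The 1 TPM added before the fit shrinks the changes of low genes, FBP1 among them. In pGAL-EUC1 against euc1∆, the 2 gluconeogenesis genes FBP1 and PCK1 were both higher at least 2-fold, with a median of 1.1. FBP1, PCK1 and MLS1 were listed at 3.57 to 10.6 TPM across both groups, and ICL1 at 28.1 to 32.5 TPM. FBP1, fructose-1,6-bisphosphatase, had 10.6, 7.99 and 8.76 TPM in the galactose control, against 4.4, 4.68 and 4.29 TPM in the glucose WT (0.88). PCK1, phosphoenolpyruvate carboxykinase, had 8.18, 7.21 and 6.79 TPM in the galactose control, against 4.1, 5.35 and 5.52 TPM in the glucose WT (0.49). ICL1, isocitrate lyase, had 28.1, 29.2 and 31.5 TPM in the galactose control, against 30.5, 32.3 and 32.5 TPM in the glucose WT, with an adjusted p of 0.238. MLS1, malate synthase, had 6.78, 6.3 and 7.65 TPM in the galactose control, against 3.57, 5.4 and 4.32 TPM in the glucose WT (0.55). ATO3, of a family of ammonium and acetate transporters, went the other way with 33.2, 32.9 and 36.3 TPM in the galactose control, against 178, 163 and 163 TPM in the glucose WT (-2.26, with an SE of 0.07 and an adjusted p of 2.84e-07). Of the 19 genes, 8 were higher and 2 lower at least 2-fold, with a median of 0.88. Beta-oxidation and peroxisome genes changed little, with 4 of 40 higher, none lower and a median of 0.14. PEX11, the factor of peroxisome division, had 76.1, 84 and 85.5 TPM in the galactose control, against 40.3, 33.6 and 33.1 TPM in the glucose WT (1.18), while POT1, the thiolase, had 8.1, 6.29 and 6.66 TPM in the galactose control, against 5.49, 7.15 and 6.29 TPM in the glucose WT, with an adjusted p of 0.454.

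Genes of respiration rose almost without exception. Of 36 nuclear genes of the respiratory chain and ATP synthase, all were higher in the galactose control at an adjusted p under 0.1 and 35 were so at least 2-fold, with a median of 2.39 and a range of 0.37 to 3.86. CYC1, cytochrome c isoform 1, had 1436, 1401 and 1465 TPM in the galactose control, against 97.8, 84.8 and 113 TPM in the glucose WT (3.86, with an SE of 0.1 and an adjusted p of 1.95e-07). The other isoform, CYC7, had 75.2, 108 and 98.8 TPM in the galactose control, against 9.43, 4.98 and 4.99 TPM in the glucose WT (3.71). COX5A, subunit 5a of cytochrome c oxidase, had 1045, 999 and 980.0 TPM in the galactose control, against 112, 128 and 149 TPM in the glucose WT (2.96, with an SE of 0.1 and an adjusted p of 5.37e-07). Its low-oxygen counterpart COX5B, the 1 gene under 2-fold, had 61.9, 63.3 and 70.7 TPM in the galactose control, against 56.3, 47.2 and 47.9 TPM in the glucose WT (0.37). By complex, the median was 3.04 for the 11 genes of the cytochrome bc1 complex and cytochrome c, 2.77 for 3 NADH dehydrogenases, 2.44 for 9 genes of cytochrome c oxidase and 1.74 for 13 genes of ATP synthase, whose lowest was 1.44. The group took 3.00 to 3.01% of all deposited TPM in the galactose control, against 0.464 to 0.525% in the glucose WT.

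All 16 genes of the tricarboxylic acid cycle were higher at an adjusted p under 0.1, 15 of them at least 2-fold, with a median of 1.82. Succinate dehydrogenase led them. Its subunit SDH2 had 498, 498 and 515 TPM in the galactose control, against 27.2, 30.7 and 34.5 TPM in the glucose WT (3.99, with an SE of 0.09 and an adjusted p of 9.29e-08). SDH1 had 249.7, 233 and 254 TPM in the galactose control, against 12.4, 15.9 and 22.2 TPM in the glucose WT (3.83). CIT1, the citrate synthase of the cycle, had 598, 591 and 611 TPM in the galactose control, against 77.2, 85 and 86.8 TPM in the glucose WT (2.84). Genes for mitochondrial ribosomal proteins rose by less but together: 79 of 80 were higher at an adjusted p under 0.1, 27 of them at least 2-fold (22 to 32 without 1 sample in turn), with a median of 0.9 and the largest change in MRPL4 (1.45). Of 8 protein genes of the mitochondrial genome, 4 reached the mean of 1 TPM. As genes can pass this filter through the group in which they are high, no count of calls is given for them. OLI1, a subunit of ATP synthase, had 149, 113 and 167 TPM in the galactose control, against 6.95, 5.45 and 0.875 TPM in the glucose WT. PolyA selection was used for these libraries, and its part in the values of mitochondrial mRNA was not tested.

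**Figure D4:**
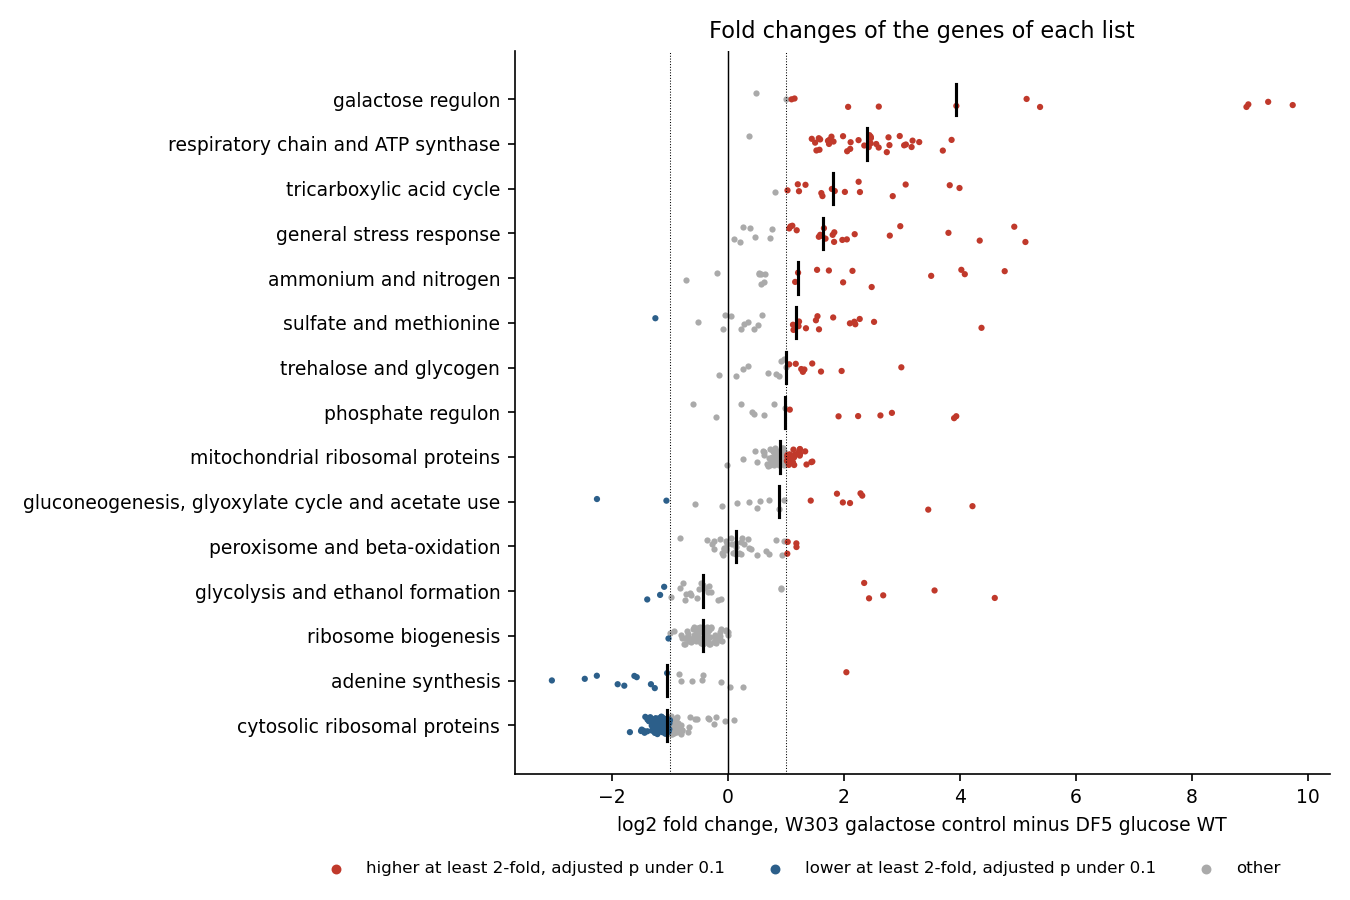
Log2 fold changes, galactose control minus glucose WT, of the tested genes of 15 lists, with 1 point per gene and a bar at the median of the list. Dotted lines mark 2-fold, and colour marks genes past it at an adjusted p under 0.1. The medians run from 3.94 (galactose regulon) to -1.06 (cytosolic ribosomal proteins), and the respiratory chain has 35 of 36 points past 2-fold.

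Cytosolic ribosomal protein genes went the opposite way to the mitochondrial ones. Of 135 tested, 133 were lower in the galactose control at an adjusted p under 0.1 and none was higher, 82 were lower at least 2-fold, and the median was -1.06 (-0.68 on the deposited values, with 129 of 135 below 0). As the median lies close to 2-fold, this count depended on single samples. Without 1 sample in turn it was 59 to 97, with a median of -1.12 to -0.961. The 135 genes and their untested members took 24.4 to 25% of all deposited TPM in the galactose control, against 38.9 to 42.4% in the glucose WT. RPL9A had 1086, 1073 and 1015 TPM in the galactose control, against 3906, 3130.0 and 3287 TPM in the glucose WT, a log2 fold change of -1.69, with an SE of 0.1 and an adjusted p of 5.95e-06, the lowest of the group. Most of these proteins have a pair of genes, and 58 pairs could be compared. The fold changes of a pair differed by a median of 0.18 on the log2 scale, 33 pairs lay within 0.25, and 4 pairs lay apart by 1 or more. RPL9B, the partner of RPL9A, had 879, 872 and 832 TPM in the galactose control, against 1028, 816 and 840.3 TPM in the glucose WT (-0.05, adjusted p = 0.682). RPS9B had 1688, 1702 and 1668 TPM in the galactose control, against 5989, 4202 and 4332 TPM in the glucose WT (-1.5, with an SE of 0.14 and an adjusted p of 6.42e-05). RPS9A had 553, 570.4 and 541 TPM in the galactose control, against 622, 463 and 474 TPM in the glucose WT (0.11, adjusted p = 0.448), and rose by 0.24 without the first glucose sample, with an adjusted p of 0.0037. RPL4A fell by 1.39 and RPL4B by 0.24, and RPL22A fell by 1.34 and RPL22B by 0.21 on the log2 scale, which for RPL4B and RPL22B was above 0 on the deposited values. The adjusted p of RPL22B was 0.112 to 0.149 without 1 of the samples 2 and 3 of the galactose control or 2 of the glucose WT. In the separate pGAL-EUC1 and euc1∆ samples the same 4 pairs were apart by 1.37, 1.06, 1.12 and 0.76 in the same direction. Of the windows of 75 bases, 7.17% in RPL9A and RPL9B and 0.196 to 0.216% in RPS9A and RPS9B occur elsewhere, but 62.2% in RPL4A and RPL4B.

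The factors that process rRNA and assemble ribosomes fell by less. Of 77, 70 were lower at an adjusted p under 0.1, 1 of them at least 2-fold (2 without the third galactose or the second glucose sample), and the median was -0.44, which became -0.07 with 47 genes below 0 on the deposited values. FPR4, a nucleolar prolyl isomerase, had 155, 145 and 145 TPM in the galactose control, against 313, 291 and 311 TPM in the glucose WT (-1.03, with an SE of 0.06 and an adjusted p of 6.41e-06). NSR1, a nucleolar protein, had 374, 359 and 344 TPM in the galactose control, against 635, 578 and 571 TPM in the glucose WT (-0.72). NOP2, an rRNA methyltransferase, had 142, 139.8 and 129 TPM in the galactose control, against 133, 134 and 147 TPM in the glucose WT, with an adjusted p of 0.927. The 19 subunits of RNA polymerases I and III had a median of -0.37, or 0.00 on the deposited values, and 2 of them, RPC17 (-1.16) and RPC37 (-1.07), were lower at least 2-fold, but neither was so without the first glucose sample, at -0.98 each. RPA190, the largest subunit of polymerase I, had 73.2, 69.6 and 62.6 TPM in the galactose control, against 68.4, 72.6 and 76.6 TPM in the glucose WT, with an adjusted p of 0.384. A low level of small nucleolar RNA, which lacks a polyA tail, was also listed, and 33 of 74 such identifiers were lower at least 2-fold, with scattered values such as 24.6, 0 and 0 TPM in the galactose control, against 129, 64.4 and 25.8 TPM in the glucose WT for snR57. The part of the polyA selection in these values was not tested.

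Genes of the general stress response were higher as a group. Of 28, 27 were higher at an adjusted p under 0.1 and 21 at least 2-fold, with a median of 1.64. HSP26, a small heat shock protein, had 319, 319 and 388 TPM in the galactose control, against 15.6, 19.8 and 12.9 TPM in the glucose WT (4.34, with an SE of 0.15 and an adjusted p of 5.46e-07). HSP12, a membrane-binding stress protein, had 579, 614 and 617 TPM in the galactose control, against 82.2, 88.7 and 60.1 TPM in the glucose WT (2.97, with an SE of 0.14 and an adjusted p of 2.15e-06). DDR2 had 520.3, 599 and 663 TPM in the galactose control, against 11.2, 28.1 and 12.5 TPM in the glucose WT (5.13). TMA10 had 518, 554 and 572 TPM in the galactose control, against 25.3, 16.3 and 11.6 TPM in the glucose WT (4.94). The chaperone HSP104, which dissolves aggregates, had 149, 157 and 174 TPM in the galactose control, against 91.6, 103 and 95.6 TPM in the glucose WT (0.72). Catalase T, CTT1, had 8.37, 6.94 and 9.21 TPM in the galactose control, against 5.37, 5.51 and 7.23 TPM in the glucose WT, with overlapping groups and a log2 fold change of 0.38, with an SE of 0.16 and an adjusted p of 0.0655. This adjusted p was 0.145 to 0.196 without 1 of the samples 1 and 3 of the galactose control or 1 and 2 of the glucose WT. Genes of this list thus spread widely, and the heat-inducible SSA4 rose by 0.47 on the log2 scale. For the reserve carbohydrates trehalose and glycogen, 17 of 19 genes were higher at an adjusted p under 0.1 and 9 at least 2-fold, with a median of 0.99. Glycogen phosphorylase, GPH1, had 64.7, 61.4 and 67.1 TPM in the galactose control, against 6.73, 8.9 and 6.29 TPM in the glucose WT (2.99, with an SE of 0.12 and an adjusted p of 1.07e-06). The branching enzyme GLC3 had 44.3, 42.4 and 51 TPM in the galactose control, against 9.87, 12.9 and 10.5 TPM in the glucose WT (1.96). Glycogen synthase, GSY2, had 55, 55.5 and 60.7 TPM in the galactose control, against 23.7, 28.3 and 22.7 TPM in the glucose WT (1.17). TSL1, a subunit of trehalose synthase, had 18.6, 20.6 and 24.4 TPM in the galactose control, against 10.4, 14.5 and 13.7 TPM in the glucose WT (0.68).

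The lists of nitrogen, of sulfate and methionine and of phosphate genes, which hold enzymes, regulators and transporters, had medians above 0. For nitrogen, 11 of 19 genes were higher and none was lower at least 2-fold, with a median of 1.21. The general amino acid permease GAP1 had 254, 255 and 281 TPM in the galactose control, against 14.1, 16.2 and 13.5 TPM in the glucose WT (4.08, with an SE of 0.08 and an adjusted p of 8.19e-08). The proline permease PUT4 had 134, 119 and 139 TPM in the galactose control, against 3.43, 3.48 and 4.58 TPM in the glucose WT (4.77, with an SE of 0.11 and an adjusted p of 1.13e-07). The ammonium permease MEP2 had 95.5, 96.7 and 94.9 TPM in the galactose control, against 16.8, 15.5 and 16.9 TPM in the glucose WT (2.48). DAL80, a repressor of nitrogen genes that is itself known to be off on rich nitrogen, had 22.9, 23.6 and 22.8 TPM in the galactose control, against 0.671, 0.448 and 0.339 TPM in the glucose WT (4.03). It reached the mean of 1 TPM only through the galactose control, which limits its part in the count. For sulfur, 15 of 26 genes were higher and 1 was lower, with a median of 1.17, and all 9 genes of sulfate assimilation were higher at least 2-fold. MET3, ATP sulfurylase, had 97.8, 100.2 and 100.1 TPM in the galactose control, against 30.5, 26.4 and 25.9 TPM in the glucose WT (1.81, with an SE of 0.07 and an adjusted p of 1.19e-06). MMP1, the permease of S-methylmethionine, had 81.6, 86.7 and 90.5 TPM in the galactose control, against 3.24, 2.99 and 3.4 TPM in the glucose WT (4.37). The isozymes of S-adenosylmethionine synthase moved apart, SAM1 with 253, 253 and 259 TPM in the galactose control, against 578, 623 and 631 TPM in the glucose WT (-1.26) and SAM2 with 555, 575 and 500.3 TPM in the galactose control, against 248, 240.3 and 212 TPM in the glucose WT (1.22). Methionine synthase, MET6, had 197, 186 and 194 TPM in the galactose control, against 278, 272 and 277 TPM in the glucose WT (-0.51), a call that was lost on the deposited values at -0.14, with an adjusted p of 0.114. For phosphate, 7 of 15 genes were higher and none was lower, with a median of 0.99. The acid phosphatase PHO5 had 170.2, 165 and 177 TPM in the galactose control, against 23.4, 21.1 and 25.3 TPM in the glucose WT (2.83, with an SE of 0.08 and an adjusted p of 2.12e-07). The transporter PHO89 had 84.5, 88.7 and 87.2 TPM in the galactose control, against 6.02, 5.01 and 3.46 TPM in the glucose WT (3.94). PHO84, the main phosphate transporter, had 1175, 1131 and 1146 TPM in the galactose control, against 576, 561 and 514 TPM in the glucose WT (1.06).

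Iron genes were mixed, with 3 higher, 3 lower and a median of -0.04 over 26, or 0.3 on the deposited values. HMX1, a haem oxygenase, had 127, 124 and 128 TPM in the galactose control, against 11.1, 9.07 and 7.12 TPM in the glucose WT (3.67, with an SE of 0.13 and an adjusted p of 6.97e-07). ENB1, a siderophore transporter, had 22.9, 23.3 and 28.2 TPM in the galactose control, against 246, 200.2 and 84.2 TPM in the glucose WT (-2.65, with an SE of 0.36 and an adjusted p of 0.000493). FIT2, a cell wall protein of iron uptake, had 529, 599 and 629.8 TPM in the galactose control, against 557, 513 and 108 TPM in the glucose WT, and FET3, the ferroxidase, had 256, 269 and 306 TPM in the galactose control, against 356, 326 and 181 TPM in the glucose WT, with adjusted p of 0.212 and 0.999. In ENB1, FIT2 and FET3 the third glucose sample stood below the other glucose samples. Without it the log2 fold change of FET3 was -0.301, with an adjusted p of 0.0303.

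Genes of adenine synthesis were mostly lower, some of them steeply. The list of 19 genes is wider than this pathway, as it also holds IMD2 and genes that supply folate-bound carbon. Of the 19, 10 were lower and 1, IMD2, was higher at least 2-fold, with a median of -1.05 (-0.68 on the deposited values). ADE17, which adds a formyl group in the late pathway, had 42.5, 39.7 and 39.1 TPM in the galactose control, against 334, 329.7 and 356 TPM in the glucose WT (-3.04, with an SE of 0.06 and an adjusted p of 8.07e-08). ADE2, an earlier step, had 31.2, 29.9 and 29.4 TPM in the galactose control, against 192, 159 and 167 TPM in the glucose WT (-2.47, with an SE of 0.08 and an adjusted p of 3.65e-07). ADE1 had 97.6, 93.1 and 95.8 TPM in the galactose control, against 338, 265 and 286 TPM in the glucose WT (-1.62). ADE13 had 129, 129 and 127 TPM in the galactose control, against 457, 443 and 440.0 TPM in the glucose WT (-1.79). Enzymes that supply folate-bound carbon, counted in the same list, were lower as well. SHM2, a serine hydroxymethyltransferase, had 169.8, 171 and 161 TPM in the galactose control, against 842, 790.0 and 795 TPM in the glucose WT (-2.27). MTD1 had 45.9, 48.8 and 47.8 TPM in the galactose control, against 209, 183 and 154 TPM in the glucose WT (-1.91). IMD2, an inosine monophosphate dehydrogenase on the way to guanine nucleotides, had 41.9, 45.2 and 40 TPM in the galactose control, against 8.86, 9.08 and 10.7 TPM in the glucose WT and rose by 2.04. Amino acid synthesis had no common direction, with 4 of 44 genes higher, 2 lower (4 without the third glucose sample) and a median of -0.07 (0.3 on the deposited values). The 2 largest of these rises, TRP1 and HIS3, were genes listed at 0 in the glucose WT, and the others were ARG4 (1.39) and LYS1 (1.13).

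Genes of cold, low oxygen and sterols went in both directions. Of 38 tested, 5 were higher and 5 lower at least 2-fold, with a median of 0.27 (0.62 on the deposited values). Among 6 genes of low oxygen, 2 were higher and 2 lower, with a median of 0.54. Among 7 cell wall mannoproteins, 1 was higher and 2 were lower. Of 25 ergosterol genes, 15 were higher and 6 lower at an adjusted p under 0.1, but only 2 and 1 at least 2-fold. TIR1, a cell wall mannoprotein, had 14.6, 18.5 and 22.7 TPM in the galactose control, against 237, 227 and 152 TPM in the glucose WT (-3.39, with an SE of 0.21 and an adjusted p of 8.22e-06). Its relative TIR3 had 9.66, 8.53 and 8.94 TPM in the galactose control, against 60.1, 53.4 and 56.1 TPM in the glucose WT (-2.52). AAC3, the ADP/ATP carrier of low oxygen, had 2.93, 2.89 and 2.8 TPM in the galactose control, against 28, 23.2 and 28.1 TPM in the glucose WT (-2.82). ANB1, a translation factor gene of low oxygen, had 19.8, 22.1 and 18.1 TPM in the galactose control, against 22.3, 16.5 and 14.9 TPM in the glucose WT, with overlapping groups and an adjusted p of 0.365, or of 0.0334 without the first glucose sample. Among ergosterol genes, HMG1, the main HMG-CoA reductase, had 137, 135 and 130.3 TPM in the galactose control, against 49.2, 47.3 and 50.7 TPM in the glucose WT (1.43). Its isozyme HMG2 had 18.1, 18.3 and 19.1 TPM in the galactose control, against 28.8, 27.7 and 29.9 TPM in the glucose WT (-0.61). UPC2, a transcription factor of sterol genes, had 6.77, 7.09 and 7.08 TPM in the galactose control, against 18.1, 20.7 and 18.7 TPM in the glucose WT (-1.33). HES1, a homologue of oxysterol-binding protein, was among the 10 largest falls with 1.41, 2.12 and 1.53 TPM in the galactose control, against 31.5, 26.2 and 14.2 TPM in the glucose WT (-3.15, with an SE of 0.28 and an adjusted p of 5.87e-05). In the family of aryl-alcohol dehydrogenases, 5 of 6 tested genes were higher, AAD6 the most, with 440.1, 460.4 and 522 TPM in the galactose control, against 26, 25.9 and 23 TPM in the glucose WT (4.19, with an SE of 0.08 and an adjusted p of 8.07e-08). The plasma membrane proton pump PMA1 had 1572, 1504 and 1671 TPM in the galactose control, against 2229, 2381 and 2531 TPM in the glucose WT (-0.59). The sodium pump gene ENA1 had 107, 103 and 109 TPM in the galactose control, against 67.5, 63 and 62.4 TPM in the glucose WT (0.72). Its neighbour ENA2 had 12.7, 20.2 and 19.1 TPM in the galactose control, against 53.6, 58.7 and 59.9 TPM in the glucose WT (-1.7), and 86.9 to 99.3% of the windows of both occur elsewhere, so that the division of reads between them is uncertain.

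Some genes were listed at 0 in all samples of 1 group. This was the case for 20 genes in the glucose WT that had a mean of at least 1 TPM and a value above 0 in all 3 samples of the galactose control, and for 8 genes the other way. TRP1, an enzyme gene of tryptophan synthesis (chromosome IV from 461842 to 462516), had 31.1, 30.2 and 31.9 TPM in the galactose control, against 0, 0 and 0 TPM in the glucose WT. HIS3, an enzyme gene of histidine synthesis (chromosome XV from 721946 to 722608), had 25.7, 24.7 and 28.3 TPM in the galactose control, against 0, 0 and 0 TPM in the glucose WT. Both are selectable markers that laboratory strains often lack, and their flanking genes SOK1, GAL3, MRM1 and DED1 were listed above 0 in every sample. PRM8, a gene of a membrane protein that responds to pheromone, and its relative MST27 lie side by side on chromosome VII from 402589 to 404391. PRM8 had 40.5, 42.8 and 40.3 TPM in the galactose control, against 0, 0 and 0 TPM in the glucose WT. MST27 had 13.5, 10.2 and 14.8 TPM in the galactose control, against 0, 0 and 0 TPM in the glucose WT, although 32.5 and 50.6% of their windows occur elsewhere. YIL014C-A, an uncharacterised reading frame, had 62.1, 49.8 and 60.2 TPM in the galactose control, against 0, 0 and 0 TPM in the glucose WT. No fold is given for these genes, as 1 group was at 0.

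The genes listed at 0 in the galactose control included a block near the right end of chromosome XIV. AIF1, a gene of a mitochondrial factor of cell death (chromosome XIV from 777602 to 778738), had 0, 0 and 0 TPM in the galactose control, against 41, 39 and 34.2 TPM in the glucose WT. Its neighbours MAN2, YNR071C and PDR18, at 765375 to 776300, were also at 0 in all 3 samples of the galactose control, with 1.71 to 5.46 TPM in the glucose WT, and HXT17 within this block had 0.0883, 0.277 and 0.423 TPM in the galactose control, against 1.21, 2.42 and 2.18 TPM in the glucose WT. COS10, beyond AIF1, had 17.9, 18.5 and 18.6 TPM in the galactose control, against 9, 13.6 and 11.8 TPM in the glucose WT. BSC5, on the other side of the block, had 11.8, 11.8 and 10.4 TPM in the galactose control, against 4.35, 4.76 and 4.19 TPM in the glucose WT. YBR013C, on chromosome II from 265492 to 265881, had 0, 0 and 0 TPM in the galactose control, against 28.9, 26.2 and 28.2 TPM in the glucose WT. In the strains of the other comparison the pattern was the same for most: 7 of the 8 genes at 0 in the galactose control were also at 0 in all pGAL-EUC1 samples, and 14 of the 20 at 0 in the glucose WT were also at 0 in all euc1∆ samples. These groups share their strain and their medium, which cannot be told apart.

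Among the most abundant mRNAs, most were common to both growth states. TDH3, FBA1, CCW12, TEF2, RPS31 and YDR524C-B were among the 10 highest of each group. CCW12, a cell wall protein gene, had 10199, 10213 and 10945 TPM in the galactose control, against 10986, 10175 and 10787 TPM in the glucose WT, with overlapping groups and an adjusted p of 0.798. CWP2, another cell wall protein gene, had 6843, 7288 and 7466 TPM in the galactose control, against 2233, 2229 and 2444 TPM in the glucose WT (1.64, with an SE of 0.08 and an adjusted p of 2.51e-06) and was among the 10 highest in the galactose control. ADH1, ENO2, RPS12 and RPL10 were among the 10 highest in the glucose WT, of which RPS12 had 3375, 3465 and 3500.1 TPM in the galactose control, against 11650.0, 8184 and 8380.3 TPM in the glucose WT (-1.43).

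Promoters of the changed genes were also described by the letters of other known factors, counted on both strands in 500 bases before the start codon. The Mig1 letters CCCCAC or CCCCGC stood before 25.5% of 691 higher genes, 13.3% of 241 lower genes and 13.7% of all 5731. The letters AGGGG, bound by the stress activators Msn2 and Msn4, stood before 52.8% of the higher, 32.8% of the lower and 34.5% of all genes, and before 21 of 28 genes of the stress list (75%). The letters CCAAT, bound by the Hap2/3/4/5 complex, stood before 32 of 36 genes of the respiratory chain (88.9%) and before 63.0% of all genes. Before the higher (66.7%) and lower genes (60.2%) they were about as frequent as before all. The letters ACCCATACA, a core of Rap1 sites, stood before 24 of 135 cytosolic ribosomal protein genes (17.8%), 6.64% of the lower genes, 0.579% of the higher genes and 1.17% of all. The PAC letters GCGATGAG stood before 42 of 77 ribosome biogenesis genes (54.5%) and 5.01% of all. They stood before 2.03% of the higher and 4.15% of the lower genes, both below the share of all. The Gcr1 letters CTTCC were about as frequent before the higher (64.3%) and lower genes (67.2%) as before all (65.4%). The patterns of different factors do not contain each other, and these shares describe sequence, not binding.

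The same change of strain and medium was seen in samples that the comparison above did not use. Between the 3 pGAL-EUC1 and the 3 euc1∆ samples, 4658 of 6319 genes (73.7%) had an adjusted p under 0.1, 2360 higher (37.3%) and 2298 lower (36.4%). At least 2-fold, 788 were higher (12.5%) and 347 lower (5.49%). Across 6300 genes tested in both, log2 fold changes correlated at r = 0.938 and rho = 0.915, where genes are not independent and both comparisons share strains, media and experiments but no sample. Of the 756 higher genes, 753 were tested there and 648 were again higher at least 2-fold (86.1% of the 753 and 82.2% of the 788). Of the 313 lower genes, 311 were tested and 256 were again lower (82.3% of the 311 and 73.8% of the 347). The sign was opposite for 2 of the 753 and 6 of the 311. GAL7 had 2781, 2639 and 3069 TPM with pGAL-EUC1, against 1.69, 3.24 and 2.07 TPM in euc1∆ (9.75), and HXT3 had 11.9, 11.8 and 13.3 TPM with pGAL-EUC1, against 542, 657 and 582 TPM in euc1∆ (-5.48). The list medians there were 2.44 for the respiratory chain, -1.19 for cytosolic ribosomal proteins and -1.13 for adenine synthesis.

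The difference between both fold changes was tested in a fit of all 12 samples. It had an adjusted p under 0.1 for 213 of 6325 genes (3.37%), and was above 0 for 150 and below 0 for 63 of them. Its size was a median of 0.46 on the log2 scale and at least 1 for 17 genes. EUC1 itself led, with 1646, 1648 and 1707 TPM with pGAL-EUC1, against 0, 0 and 0.106 TPM in euc1∆ and a difference of -9.54, with an SE of 0.24 and an adjusted p of 1.26e-09. PMA1 had 809, 799 and 809 TPM with pGAL-EUC1, against 2734, 3452 and 2859.8 TPM in euc1∆, so that its fold change there was -1.89 against -0.59 in the comparison above, a difference of 1.31, with an SE of 0.12 and an adjusted p of 0.000538. TIR1 had 4.72, 7.49 and 5.69 TPM with pGAL-EUC1, against 229, 233 and 249.8 TPM in euc1∆, a difference of 1.73, with an SE of 0.27 and an adjusted p of 0.0113. HSP12 had 868, 819.6 and 757 TPM with pGAL-EUC1, against 27.2, 27.9 and 55.4 TPM in euc1∆, a difference of -1.54, with an SE of 0.32 and an adjusted p of 0.0457. HXT4 had 43.6, 44.7 and 44 TPM with pGAL-EUC1, against 26, 28.2 and 31.6 TPM in euc1∆, a difference of 1.05, with an SE of 0.1 and an adjusted p of 0.000559. These 4 genes moved in the same direction in both comparisons, by unequal amounts. The tests of the difference depended on single samples. Without 1 of the 12 samples in turn, between 68 and 332 genes had an adjusted p under 0.1, with the lowest count without the first pGAL-EUC1 sample and the highest without the third glucose WT sample. Only leaving out the first glucose WT or the first euc1∆ sample kept the count within 1.5 times 213.

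**Figure D5:**
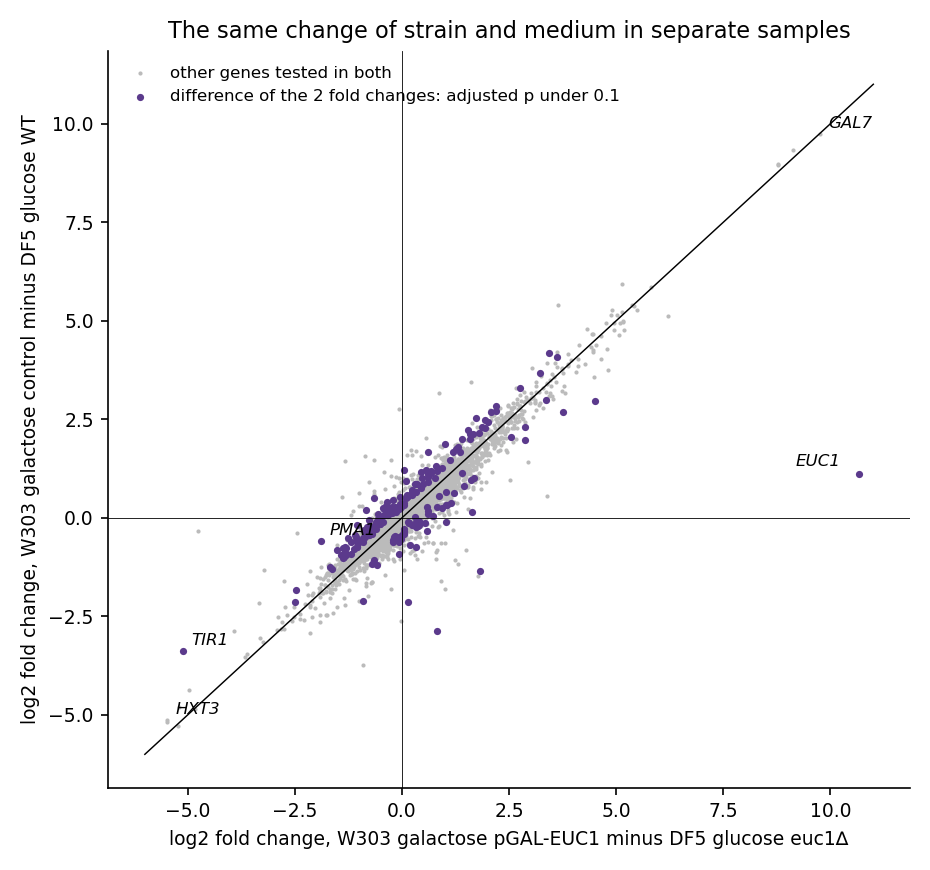
Log2 fold changes of each gene in the galactose control minus the glucose WT (vertical axis) and in pGAL-EUC1 minus euc1∆ (horizontal axis), with the line of equal changes, each comparison with 3 against 3 samples and none shared. Genes in purple differ between both at an adjusted p under 0.1. EUC1 stands apart at 1.11 and 10.65, and most other genes lie along the line.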

How the data were processed

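PolyA RNA of 12 yeast samples was sequenced as single reads of 75 bases. Per the labels and the study's methods, the authors aligned the reads with STAR 2.6.0a to the ENSEMBL R64-1-1 genome and quantified genes with RSEM 1.3.0, and deposited TPM values per gene. Depth per sample and read counts are not given in the sources used here, so that no interval from counting could be computed. TPM values were divided by size factors (median of ratios over all 12 samples), log2(TPM + 1) was taken, and genes with a mean TPM of at least 1 over the samples of a comparison were fitted with limma 3.58.1 in R 4.3.3 (lmFit, eBayes with trend, two-sided, Benjamini-Hochberg over all genes tested). Calls used an adjusted p under 0.1, and for fold calls also a log2 fold change of at least 1 in size. The fit was tested on simulated data. Python 3.11.15 made the tables (pandas 2.3.3 on numpy 2.4.6) and the plots (matplotlib 3.10.9). With 3 samples against 3, an exact permutation test could not go below p = 0.1, so that single genes were judged by the limma fit alone.

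The 2 groups, the 28 gene lists and the comparisons were chosen with earlier results of these data known. Named were the 10 largest rises and falls without overlap between groups, key genes of each list and up to 4 further members with the largest calls, genes listed at 0 in 1 group, and the 10 highest genes of each group; flanking genes, the genes RPL4A, RPL4B, RPL22A, RPL22B, RPL9B, RPS9A, SDD1 and HTC1 and those of the difference between comparisons were added after their values were seen. Alternatives were the deposited scale, added values of 0.1 and 5, no filter or a mean of 10 TPM, nuclear open reading frames alone, 1 fit of all 12 samples, no trend, a replicate block, a length correction, each sample left out in turn and, chosen after seeing the data, size factors from the 6 samples. Promoters were 500 bases before start codons in R64 (RefSeq), and windows of 75 bases were matched to the whole genome.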

Additional observations from a re-analysis of the deposited data

Results flagged for a closer look

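The log2 fold change of 23 genes named above differed between the galactose control against the glucose WT and pGAL-EUC1 against euc1∆, by a test of the difference in 1 fit of all 12 samples (limma, adjusted p under 0.1). Each difference is the first fold change minus the second. EUC1, whose own level the second comparison was built to change, had a difference of -9.54. Among genes of the plasma membrane and cell wall, it was 1.73 for TIR1, 1.31 for PMA1, 1.05 for HXT4, 0.54 for MEP2, 0.47 for ENA1, 0.46 for GAP1, -0.25 for FUR4 and -0.38 for STE2. Among genes of glycolysis and ethanol it was 0.70 for CDC19, 0.46 for HXK2, 0.43 for ENO1, 0.43 for FBA1 and -0.57 for ADH2. Methionine genes had differences of 0.75 for MET6, 0.66 for SAM2 and 0.42 for SAM1. Ribosomal protein genes had 0.66 for RPS9A, 0.55 for RPL22B and 0.37 for RPL4B. The stress gene HSP12 had -1.54, the aryl-alcohol dehydrogenase AAD6 had 0.76 and HTC1 had 0.65. All 12 samples are in groups of 3, which are too small for a check of single samples that stand apart.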

How the results depend on the processing

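TPM gives no read number, so that the precision of low values is unknown, and strain, medium and experiment cannot be told apart. On TPM as deposited the galactose control had 1219 genes higher and 128 lower at least 2-fold, and pGAL-EUC1 against euc1∆ had 1408 higher and 123 lower. There the log2 fold change turned positive for HXK2 (0.087), RPL4B (0.13), RPL22B (0.16), ICL1 (0.26), MIG1 (0.28), RPA190 (0.29), YDR524C-B (0.31), RPL9B (0.33), CCW12 (0.35) and NOP2 (0.36). The limma adjusted p of these rises was under 0.1 except for HXK2 (0.164) and RPL4B (0.174), and was 0.00138 for CCW12 and 0.0269 for MIG1. ANB1 (0.52), FIT2 (1.27), POT1 (0.46), RGT2 (0.52), RPS9A (0.48) and SOK1 (0.42) gained an adjusted p under 0.1 there, all as rises. FBA1 (-0.06), MET6 (-0.14) and STE2 (-0.13) lost their calls. Size factors from the 6 samples alone, chosen after seeing the data, changed no call among 165 named genes. With the correction for gene length, 693 genes were higher and 250 lower. Of the named genes, 143 kept their direction and their side of the threshold under all settings run. Leaving out each sample in turn gave 747 to 776 higher and 269 to 351 lower genes, 68 to 332 genes whose fold change differed between the comparisons, and a log2 fold change of -0.301 to 0.183 for FET3. Samples with the same replicate number did not deviate together (r = -0.046, -0.083 and -0.024 for the galactose control with the glucose WT). With the replicate number as a block, 119 in place of 213 genes differed between both comparisons, and of the named genes only SNF1 lost its call. The causes of these shifts were not tested.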
